A study of Mus musculus with 6 samples.

Results

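Matrix metalloproteinases (MMPs) and tissue inhibitors of metalloproteinases (TIMPs) were followed in mouse bone marrow derived macrophages (BMDM) treated with IL17B. The genes described are the 9 rows of the deposited expression table with the symbols Mmp2, Mmp8, Mmp12, Mmp13, Mmp14, Mmp19, Timp1, Timp2 and Timp3, out of 16978 genes in the table. They are 9 of the 23 MMP and TIMP genes the table holds. They are taken by their symbols, with no threshold on a measured value, but were chosen with earlier results of these data known. The tested cells received 200 ng/ml recombinant IL17B for 6 hours, and the control cells received PBS for the same time, with 3 samples for each treatment. All cells came from wild type C57BL/6 mice and were grown from femur bone marrow with 25 ng/ml M-CSF until day 7, so the controls carry the M-CSF culture too. No source used here states if the samples are separate mice or cultures, so a p-value reflects the scatter among 3 samples that could be purely technical.

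MMPs are zinc-dependent proteases that cut collagens, elastin, laminins, fibronectin and many cell surface proteins. They are made with a propeptide that keeps the catalytic site closed until it is cut away, and once active they are held in check by TIMPs, which bind to the catalytic site. Macrophages use them to cross and remodel tissue. Mmp12, macrophage elastase, is the member best known from this cell type. IL17B is a cytokine of the IL17 family, and the comparison asked what it changes in macrophages that receive no other stimulus.

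The 6 libraries were of like depth, between 20271450 and 20653371 estimated counts. The macrophage label fit the markers: all 12 macrophage markers of a list were detected in each library, and their summed level was 31003 to 32883 CPM (gene counts relative to a normalized library size) with IL17B and 30315 to 31918 CPM in controls. IL17B replicates 2 and 3 stood apart from the other libraries. In these replicates, 11 hepatocyte markers other than Trf summed to 216 CPM and 75.9 CPM, against 0.343 CPM in IL17B replicate 1 and 0.243, 0.437 and 0.587 CPM in the controls. For most members, the value without both replicates is given beside the result. That fit has 1 IL17B library left. Any pair of libraries differed by more than counting noise, with a variance of 4.18 to 10.1 times that of counting on average, so each library was counted as 1 sample.

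All 9 genes were expressed, over a wide range. Levels of different genes are compared here as TPM, which is set per transcript length. Mmp12 and Timp2 led, at 510 ± 75.5 TPM with IL17B against 493 ± 71.7 TPM in controls for Mmp12, and at 379 ± 15.4 TPM with IL17B against 372 ± 16.4 TPM in controls for Timp2 (SD, n = 3 each). By mean TPM, Mmp12 was number 266 and Timp2 number 369 of the 16978 genes. Mmp14 followed with 101 to 119 TPM and Mmp19 with 25.0 to 29.3 TPM over the 6 libraries. Timp1 with 9.93 to 17.2 TPM and Mmp8 with 10.1 to 12.1 TPM came next, and their ranges overlapped. Mmp13 with 4.52 to 6.07 TPM and Timp3 with 3.46 to 7.73 TPM overlapped as well, and Mmp2 was last with 1.98 to 2.69 TPM. The other neighbours in this order had ranges that did not meet.

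**Figure D1:**
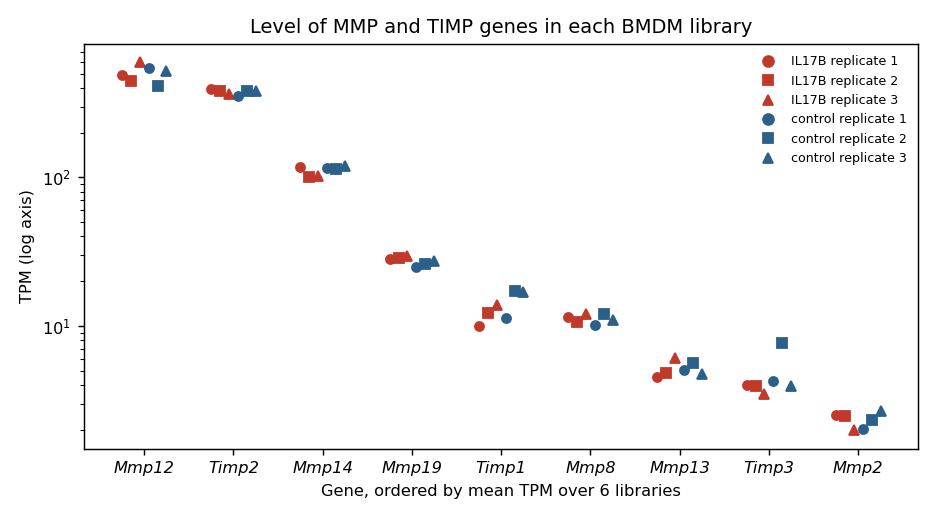
TPM of each of the 9 genes (log axis) in each library, with IL17B libraries in red left of control libraries in blue. Mmp12 and Timp2 lie above 353 TPM in each library and Mmp2 below 2.7 TPM, and within a gene the colours mix except for Mmp19.

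IL17B gave no difference in these 9 genes that stood out from the spread of the libraries. The fitted changes of Mmp2, Mmp8, Mmp12, Mmp13 and Timp2 were within 0.05 of 0 on the log2 scale, Mmp19 was slightly higher, and Mmp14, Timp1 and Timp3 had lower means. No member passed the test (edgeR quasi-likelihood, Benjamini-Hochberg adjusted p of at most 0.05), and the adjusted p lay between 0.941 and 0.9996. In the same test 0 of 13866 genes, or 0%, were called higher and 0, or 0%, lower. At an unadjusted p under 0.05 there were 2 of the 9 members, Mmp19 and Mmp14, against 5.24% of all genes tested. Mmp19 was also the 1 member of 9 whose IL17B and control libraries did not overlap, against 9.92% of all genes (5.16% higher, as Mmp19 was, and 4.77% lower). DESeq2 called 6 genes, or 0.0433%, and limma-voom 0, and no member was among them. A p that misses the threshold does not show equal levels, so the 95% interval of each difference is given below.

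**Figure D2:**
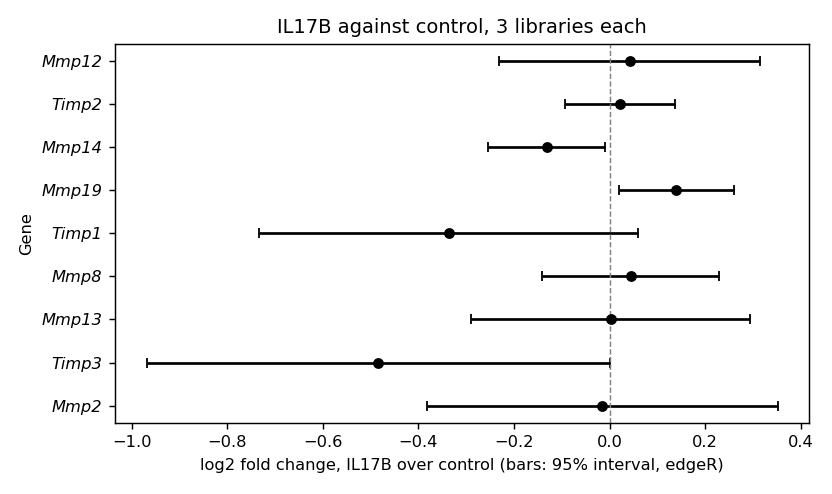
Fitted log2 fold change, IL17B over control, of each gene with its 95% interval from edgeR (3 libraries each). The points lie between -0.48 for Timp3 and 0.14 for Mmp19, and the intervals of Timp3 and Timp1 are wide.

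Mmp12 encodes macrophage elastase, which degrades elastin. It had 8630, 8250 and 10682 counts with IL17B, against 10078, 7350 and 9433 counts in controls. The highest library was IL17B replicate 3 and the lowest control replicate 2, and the groups overlapped in part. The log2 fold change was 0.04 (SE 0.12), with a 95% interval of -0.23 to 0.31, or a change of -14.8% to 24.4%. It was -0.05 without IL17B replicates 2 and 3. Its libraries spread more than those of Timp2. The coefficient of variation in CPM was 14.02% with IL17B and 16.1% in controls for Mmp12, and 4.58% with IL17B and 3.23% in controls for Timp2.

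Mmp13 and Mmp8 are collagenases that cut fibrillar collagen. Mmp13 is the main interstitial collagenase of the mouse, and Mmp8 is best known from neutrophil granules. Mmp13 had 117, 131 and 160 counts with IL17B, against 136, 148 and 125 counts in controls, and the lowest and the highest library were both from IL17B (log2 fold change 0.00, SE 0.13, 95% interval -0.29 to 0.29). Mmp8 had 274, 263 and 291 counts with IL17B, against 250, 291 and 265 counts in controls (log2 fold change 0.04, SE 0.08, 95% interval -0.14 to 0.23). The groups overlapped for both genes. Without IL17B replicates 2 and 3 the log2 fold change of Mmp13 was -0.21 and that of Mmp8 0.04. Neutrophil markers were low in these cultures. The 9 of 12 that the table lists summed to 4.22, 3.81 and 4.63 CPM with IL17B and 3.21, 3.88 and 4.70 CPM in controls. In a library 3 to 7 of them were detected. Most of each sum was Cxcr2, with 70, 59 and 74 counts with IL17B and 49, 59 and 71 counts in controls. Of the defining markers, Ly6g, S100a9 and Retnlg were not analysed here.

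Mmp12, Mmp13 and Mmp8 lie in 1 cluster of 7 MMP genes of the table on chromosome 9, which spans 309 kb (chr9:7272514-7581885, GRCm38.p6). Genes of this cluster are known to respond to AP-1, the dimer of Fos and Jun proteins, through a site just before the start. The 100 bases before a RefSeq start of each gene (GRCm38.p6, plus strand, 5′ to 3′) are shown because they are the stretch in which such a site is known, with AP-1 matches in capitals. The Mmp12 stretch, chr9:7347274-7347373, precedes the second of its 2 starts, the Mmp13 stretch is chr9:7272414-7272513 and the Mmp8 stretch is chr9:7558329-7558428.
Mmp12: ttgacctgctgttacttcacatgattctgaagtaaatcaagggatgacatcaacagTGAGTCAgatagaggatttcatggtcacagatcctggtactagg
Mmp13: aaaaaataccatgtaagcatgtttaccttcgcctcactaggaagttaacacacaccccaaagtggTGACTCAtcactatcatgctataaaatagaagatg
Mmp8: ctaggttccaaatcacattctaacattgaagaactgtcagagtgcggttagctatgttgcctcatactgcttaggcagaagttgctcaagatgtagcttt
The letters searched were TGANTCA, which read the same on both strands, in windows of 250 bases before to 50 bases after each start. The match began 44 bases before the Mmp12 start and 35 bases before the Mmp13 start, and none was in the Mmp8 stretch. The 100 bases before the first Mmp12 start, chr9:7344297-7344396, held none either. Windows were at hand for 7 of the 9 genes, 8 windows in all, and 2 of the 8 held the letters, against 7.81% of 32851 windows of all genes. A match is a description of letters, not a shown site.

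Mmp14 (chr14:54431598-54442456) is membrane type 1 MMP, a cell surface collagenase that activates pro-Mmp2, and Mmp2 (chr8:92827290-92853421) is gelatinase A. Mmp14 had 4304, 3905 and 3853 counts with IL17B, against 4469, 4283 and 4512 counts in controls. IL17B replicate 1 lay within the control range, and IL17B replicates 2 and 3 lay below each control. The log2 fold change was -0.13 (SE 0.05, 95% interval -0.25 to -0.01), with an unadjusted p of 0.038 and an adjusted p of 0.941 by edgeR. The replicates that lie low are those with hepatocyte transcripts. Without both, and so with only the highest IL17B library left, the log2 fold change was -0.03. With single libraries left out it lay between -0.18 and -0.10. The part of the hepatocyte transcripts in the difference was not tested. Mmp2 had 75, 77 and 60 counts with IL17B, against 63, 70 and 82 counts in controls, with overlapping groups (log2 fold change -0.02, SE 0.16, 95% interval -0.38 to 0.35).

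Mmp19 (chr10:128790910-128800827) encodes a protease that cuts components of basement membranes. It had 922, 975 and 965 counts with IL17B, against 838, 858 and 911 counts in controls, and each IL17B library was above each control library. The gap between the lowest IL17B and the highest control library was small, at 45.2 CPM with IL17B against 44.6 CPM in controls. The log2 fold change was 0.14 (SE 0.05, 95% interval 0.02 to 0.26), or 10.2% higher, with an unadjusted p of 0.0265 and an adjusted p of 0.941 by edgeR. The groups stayed apart under each of the 4 other scalings tried, and without IL17B replicates 2 and 3 the log2 fold change was 0.09. Mmp19 overlaps Tmem198b in the annotation, and no source says that the reads kept their strand, so reads of both genes cannot be told apart there. Neither gene had a whole estimated count in any of the 6 libraries, so both held divided reads, and the counts given here are rounded. Tmem198b had 447, 455 and 416 estimated counts with IL17B, against 431, 437 and 441 estimated counts in controls, with overlapping groups.

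**Figure D3:**
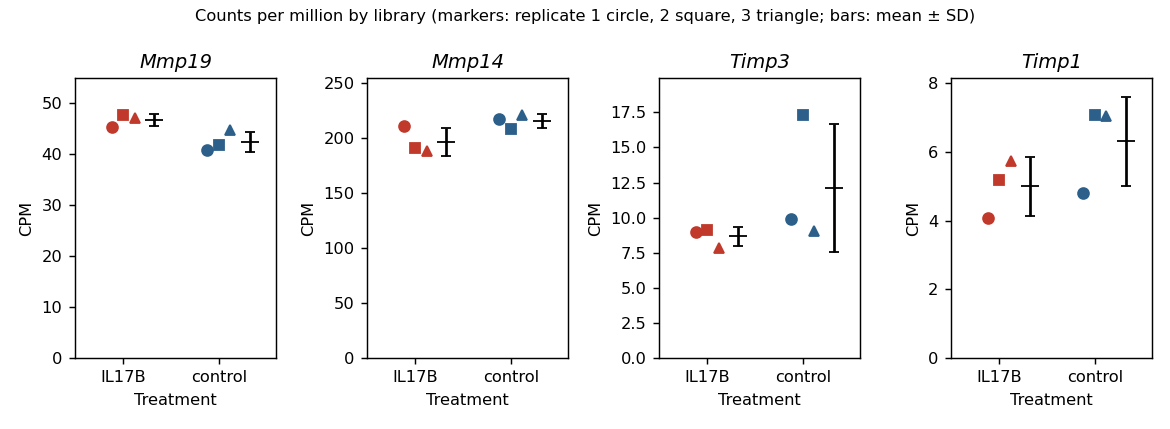
CPM by library, from 0, for the 4 genes with the smallest p, Mmp19, Mmp14, Timp3 and Timp1, with the mean ± SD of each treatment (n = 3). For Mmp19 the IL17B points lie above all control points, and for Timp3 control replicate 2 stands high at 17.3 CPM.

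Of the inhibitors, Timp2, which also takes part with Mmp14 in the activation of pro-Mmp2, made up most of the message. It had 13753, 14133 and 12954 counts with IL17B, against 12998, 13627 and 13741 counts in controls. Timp2 (chr11:118301061-118355411) overlaps Cep295nl, which had 8 to 17.0 estimated counts. The groups overlapped, and the interval was narrow (log2 fold change 0.02, SE 0.05, 95% interval -0.09 to 0.14). Timp1 is a secreted inhibitor that is a poor inhibitor of Mmp14. Timp1 had 83, 106 and 118 counts with IL17B, against 99, 146 and 144 counts in controls (log2 fold change -0.34, SE 0.18, 95% interval -0.73 to 0.06, adjusted p = 0.96 by edgeR). Control replicates 2 and 3 were the highest libraries, and control replicate 1 lay among those with IL17B. Without IL17B replicates 2 and 3 the log2 fold change of Timp1 was -0.63, with 1 IL17B library left, and without IL17B replicate 1 it was -0.21. With single libraries left out it lay between -0.50 and -0.21.

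Timp3 stays bound to the matrix and also inhibits Adam17, the protease that sheds TNF. Timp3 had 183, 187 and 161 counts with IL17B, against 204, 357 and 185 counts in controls. Control replicate 2 stood above all other libraries, and control replicate 3 lay among those with IL17B. The log2 fold change was -0.48 (SE 0.22, 95% interval -0.97 to 0.00, adjusted p = 0.941 by edgeR). It was -0.13 without control replicate 2 and -0.43 without IL17B replicates 2 and 3. Fibroblast markers moved the same way: the 12 markers summed to 48.3, 50.5 and 48.7 CPM with IL17B and 56.3, 78.8 and 55.8 CPM in controls, with 10 to 12 of them detected in a library. Their part in the values of Timp3 and Timp1 was not tested. In these bulk samples fewer cells of a type and less RNA per cell cannot be told apart. Timp3 (chr10:86300412-86349505) overlaps Syn3. The estimated counts of Timp3 were not whole numbers in any of the 6 libraries, so it held reads divided with other genes. In control replicate 1 Timp3 had 203.56 estimated counts and Syn3 a whole 28. Which genes shared reads with Timp3 was not tested. Timp1 (chrX:20870166-20874737) overlaps Syn1. The estimated counts of Timp1 and Syn1 were whole numbers in all 6 libraries, so no division of reads between them was seen. Syn3 had 40.3, 39.99 and 39.4 estimated counts with IL17B, against 28, 36.8 and 40.3 in controls. Syn1 had 654, 632 and 604 estimated counts with IL17B, against 555, 485 and 654 in controls, more than Timp1 in each library.

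The ratio of summed MMP message to summed TIMP message did not move beyond the spread of the libraries. Protein and protease activity were not measured in these samples. The 6 MMP genes summed to 652, 596 and 746 TPM with IL17B, against 704, 572 and 686 TPM in controls. The 3 TIMP genes summed to 405, 400 and 379 TPM with IL17B, against 369, 407 and 403 TPM in controls. The ratio of the sums was 1.61, 1.49 and 1.97 with IL17B and 1.91, 1.41 and 1.70 in controls, a mean of 1.69 ± 0.25 with IL17B against 1.67 ± 0.25 in controls (SD, n = 3 each). In CPM, which is not set per length, the ratio was 1.06 ± 0.14 with IL17B and 1.07 ± 0.14 in controls, so the sign of this small difference turned. These sums were carried by a pair of genes. Mmp12 held 71.9% to 79.6% of the MMP sum and Timp2 93.9% to 96.6% of the TIMP sum over the 6 libraries. Mmp14 had the next share of the MMP sum, with 16.2 ± 2.19% with IL17B and 17.9 ± 1.84% in controls.

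**Figure D4:**
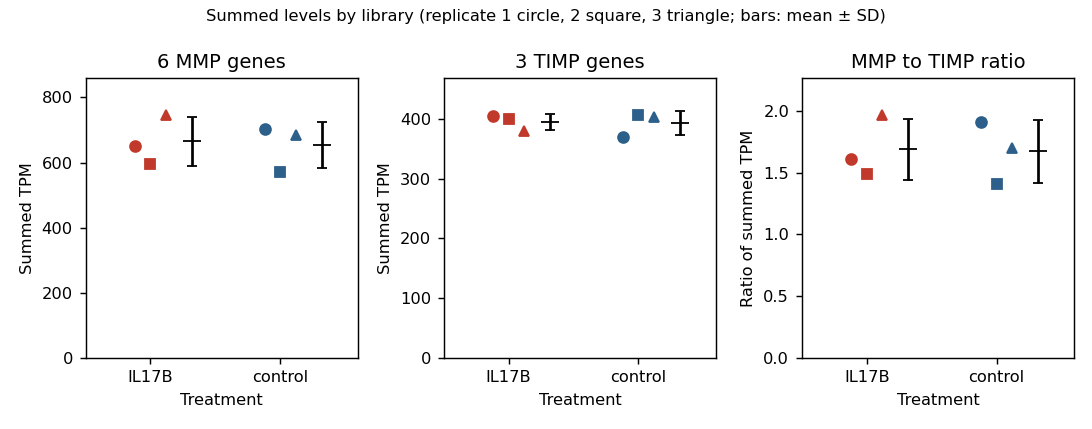
Summed TPM of the 6 MMP genes, of the 3 TIMP genes, and the ratio of these sums, in each library with the mean ± SD of each treatment (n = 3), axes from 0. In each panel IL17B and control points overlap, and the mean ratio is 1.69 with IL17B and 1.67 in controls.

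The other genes of the family averaged at most 6.00 TPM. Mmp24 with 6.00 TPM and Mmp27 with 5.92 TPM over the 6 libraries lay above the means of the members Mmp13, Timp3 and Mmp2. Of the 14 in the table, 11 had enough counts for the test, and 0 of these reached an unadjusted p under 0.05 (edgeR), with a median log2 fold change of -0.19. Mmp24, a membrane type MMP, had 255, 282 and 261 counts with IL17B and 245, 261 and 241 counts in controls. Mmp9, gelatinase B, had 34, 39 and 53 counts with IL17B and 47, 40 and 40 counts in controls. Both groups overlapped for Mmp24 and Mmp9. Mmp27 had 4.97 CPM on average with IL17B and 5.66 CPM in controls, and Mmp23 had 0.73 CPM with IL17B and 0.80 CPM in controls. Mmp1a, Mmp7, Mmp20 and Timp4 were not analysed here.

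Genes that activate MMPs were not called either. Of 11 tested genes for proprotein convertases and plasminogen activation, 0 were called, and their median log2 fold change was -0.02, against 0.00 over all 13866 genes. At an unadjusted p under 0.05 by edgeR, 1 was higher and 1 lower, or 18.2%, against 5.24% of all genes tested. Groups were apart for 1 higher and 1 lower gene, or 18.2%, against 9.92% of all genes tested. Furin, the convertase that activates Mmp14 inside the cell, had 219 CPM on average with IL17B and 221 CPM in controls. Plau, the urokinase activator of plasminogen, had 40.9 CPM with IL17B and 43.1 CPM in controls, and its receptor gene Plaur 43.7 CPM with IL17B and 43.4 CPM in controls. The smallest p of the list belonged to Plg, plasminogen, a liver product, with 0, 89 and 40 counts with IL17B and 0, 0 and 0 counts in controls. Its counts came from the replicates that held hepatocyte transcripts.

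No call was made among other proteases and partners of MMPs. Among 13 tested genes for further inhibitors, docking partners and clearance receptors, 0 had an unadjusted p under 0.05. Lrp1, a receptor that takes up MMPs and TIMPs, had 3181 CPM with IL17B and 3208 CPM in controls, and Cd63, a partner of Timp1 at the cell surface, had 666 CPM with IL17B and 678 CPM in controls. Lgals3bp, with 14072, 13811 and 11801 counts with IL17B and 19560, 23570 and 11098 counts in controls, spread most among the controls. Of 21 tested ADAM and ADAMTS genes, 0 were called and 2 had an unadjusted p under 0.05 by edgeR, 1 higher and 1 lower. That is 9.52%, against 5.24% of all genes tested. Groups were apart for 1 higher and 1 lower gene of the list, or 9.52%, against 9.92% of all genes tested. Adam17 had 416 CPM in both groups, and Adam8 1918 CPM with IL17B and 1810 CPM in controls. Adam19 had 189, 196 and 171 counts with IL17B and 135, 152 and 156 counts in controls, with groups apart (log2 fold change 0.33 with an SE of 0.10 and an adjusted p of 0.862 by edgeR). Of the 7 tested genes for matrix-cutting cathepsins and cystatin C, 0 were called and 0 had an unadjusted p under 0.05. Ctsb, Ctsd, Ctss and Ctsl had mean levels of 15612, 9915, 4979 and 1354 CPM with IL17B and 15511, 10497, 5185 and 1325 CPM in controls.

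Genes for MMP substrates were mostly at lower counts with IL17B, and 0 of the 17 tested were called by edgeR. Among them 15 had a log2 fold change below 0, and the median was -0.35. At an unadjusted p under 0.05 by edgeR there were 9, with 8 lower and 1 higher. That is 52.9%, against 5.24% of all 13866 genes (410 higher and 316 lower). Groups were apart for 4 lower genes and 1 higher, or 29.4%, against 9.92% of all genes tested. Dcn, which encodes decorin, had 19, 35 and 26 counts with IL17B and 55, 75 and 50 counts in controls (log2 fold change -1.16 with an SE of 0.26 and an adjusted p of 0.862 by edgeR), and its log2 fold change was -1.64 without IL17B replicates 2 and 3. Hspg2, perlecan of basement membranes, had 112, 95 and 114 counts with IL17B and 131, 218 and 163 counts in controls, and Col1a1, a chain of type I collagen, had 282, 284 and 268 counts with IL17B and 358, 415 and 298 counts in controls. Vcan, versican, was the other way, with 466, 407 and 473 counts with IL17B and 284, 257 and 387 counts in controls (log2 fold change 0.54 with an SE of 0.14 and an adjusted p of 0.862 by edgeR). Fn1, fibronectin, had 663, 788 and 792 counts with IL17B and 738, 1164 and 897 counts in controls. Control replicate 2 was the highest library for Dcn, Hspg2, Col1a1, Col1a2 and Fn1, and the lowest for Vcan. Without control replicate 2 the log2 fold change of Dcn was -0.97. Spp1, osteopontin, had the highest CPM of the list and overlapped, with 1657 CPM with IL17B and 1734 CPM in controls. Lamc1, a laminin gene, overlapped as well, with 49.3 CPM with IL17B and 47.9 CPM in controls (log2 fold change 0.04). Of the 18 substrates listed, 4 are also fibroblast markers, Dcn, Col1a1, Col1a2 and Col3a1, and all IL17B libraries had a smaller fibroblast marker sum than any control. Its part in these differences was not tested.

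Transcription factors that act on MMP and TIMP promoters were tested as 21 genes, and 0 were called, with a median log2 fold change of 0.00. At an unadjusted p under 0.05 by edgeR there were 2 genes, 1 higher and 1 lower. That is 9.52%, against 5.24% of all genes tested. Fos had 5811, 5659 and 6297 counts with IL17B, against 6874, 5138 and 5532 counts in controls, and Junb had 4373, 4872 and 4463 counts with IL17B, against 4710, 4408 and 4618 counts in controls. Both are AP-1 proteins, and their groups overlapped. Of the other AP-1 genes, Fosl2 had 1745, 1640 and 1704 counts with IL17B, against 1430, 1360 and 1711 counts in controls (log2 fold change 0.18, adjusted p = 0.941 by edgeR). Jun had 2067, 2031 and 2214 counts with IL17B, against 2487, 2154 and 2301 counts in controls (log2 fold change -0.13, adjusted p = 0.941 by edgeR), and both genes had overlapping groups. Spi1, encoding PU.1, had 454 CPM with IL17B and 466 CPM in controls. Cebpb had 2976, 3377 and 3323 counts with IL17B, against 3766, 3299 and 4087 counts in controls (log2 fold change -0.20 with an SE of 0.08 and an adjusted p of 0.941 by edgeR). It was -0.12 without control replicate 3 and -0.31 without IL17B replicates 2 and 3.

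**Figure D5:**
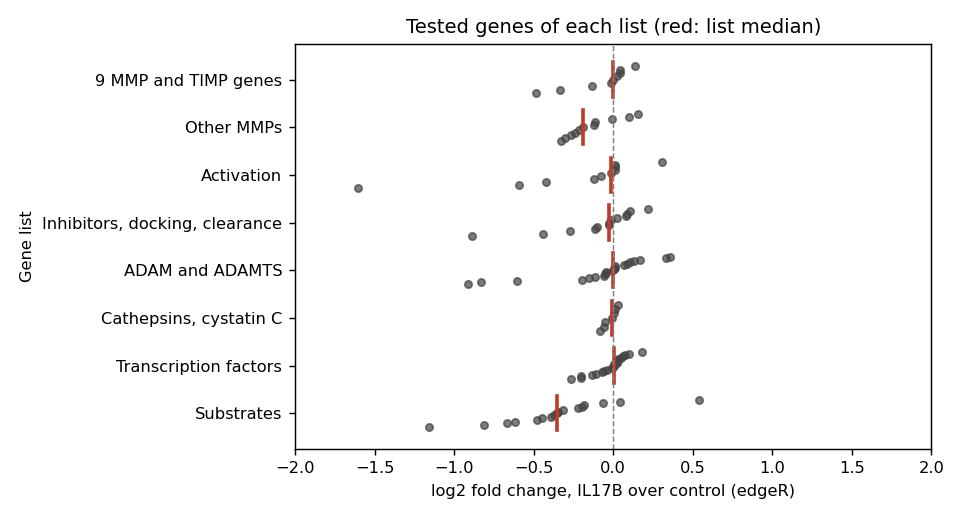
Fitted log2 fold change, IL17B over control, of each tested gene of the lists described, with the list median in red. The substrate list has its median at -0.35, that of the other MMPs is at -0.19, and Plg is beyond the axis.

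The genes most alike to a member were sought among the genes of at least 10 CPM by Pearson's r of log2(CPM + 0.5) over the 6 libraries. For Mmp12 the nearest was Dcstamp with r = 0.993, and Dcstamp had 192, 177 and 269 counts with IL17B and 263, 139 and 232 counts in controls. The nearest to Mmp13 was Oas1g with r = 0.999, to Mmp8 Col4a3bp with r = 0.993, to Mmp14 Ppp5c with r = 0.983 and to Mmp19 Zkscan3 with r = 0.992. The nearest to Timp1 was Khdc4 with r = 0.986, to Timp2 Gramd1a with r = 0.999 and to Timp3 Cep170b with r = 0.994. With 6 points and 8679 or 8680 genes searched, the nearest gene has a high r by construction, and the points share library and depth, so these are descriptions only.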

How the data were processed

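Bulk RNAseq of 6 BMDM samples, 3 with IL17B and 3 with PBS, was analysed from 1 deposited table. Per the labels, the authors used HISAT2 2.0.4, Bowtie2 2.2.5 and the genome build GRCm38.p6. By their methods, HISAT2 mapped reads to the genome, and Bowtie2 aligned them to a set of coding genes. The deposited estimated counts were made by RSEM 1.2.12, which divides reads that match several genes, and the authors derived the deposited FPKM and TPM values from the same alignments. The labels also name DESeq2 1.4.5. The authors' mean columns were not used.

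After rounding, genes whose 6 libraries together held 15 counts or more were kept (13866), and edgeR 4.0.16 under R 4.3.3 fitted a quasi-likelihood model to them without a block, with TMM factors of 0.994 to 1.01. Limma 3.58.1 and DESeq2 1.42.0 served the alternatives, which also included other scalings and filters, a replicate block and each library left out. An exact permutation test of 3 against 3 cannot go below p = 0.1 and was not used. The test was checked on counts simulated with the spread fitted to these data. Those counts did not carry differences between single libraries such as the hepatocyte transcripts, so the check does not cover these.

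Members and gene lists were chosen with earlier results of these data known. The genes named are all 9 members and, of each list, up to 4 with the highest mean CPM and the one with the smallest p. Hspg2, Col1a1, Col1a2, Col3a1, Vcan, Trf, Tmem198b, Syn1, Syn3, Fosl2 and Jun were named after their values were seen. Promoter sequences and coordinates are from RefSeq, GRCm38.p6.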

Additional observations from a re-analysis of the deposited data

How the results depend on the processing

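No member was called under any of the 17 alternatives, 16 planned and 1 added after seeing the data (without IL17B replicates 2 and 3 together). Of 153 fold changes of members under them, 137 kept their direction and 16 reversed, those of Mmp12, Timp2, Mmp8, Mmp13 and Mmp2. With libraries left out singly, Mmp12 ranged over -0.085 to 0.14, Timp2 over -0.0049 to 0.060, Mmp8 over -0.0041 to 0.10, Mmp13 over -0.13 to 0.10 and Mmp2 over -0.10 to 0.10 on the log2 scale, and Timp3 over -0.65 to -0.13. Without IL17B replicates 2 and 3 together, Mmp12 was at -0.045, Mmp13 at -0.21 and Mmp2 at 0.074. Mmp13 was at -0.0041 with limma on FPKM plus 0.1, at -0.0030 on TPM plus 0.1, at -0.0016 on TPM plus 1 and at -0.0034 with the replicate block.

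Over all genes, DESeq2 called 6 higher, and limma on FPKM plus 0.1 and on TPM plus 0.1 called 1 each. Same-numbered libraries did not deviate together (r from -0.16 to 0.01), and a replicate block gave 74 higher and 2 lower, including 1 activation gene, Plg, and 2 substrates, Dcn (log2 fold change -1.17) and Vcan. With single libraries left out, 0 to 77 genes were called higher and 0 to 9 lower, and the activation list had 0 to 1. The highest counts came without IL17B replicate 1, which left the replicates with hepatocyte transcripts. Of the 24 genes most alike to members, 12 were also named with TPM. Plg gave no value with filterByExpr and without IL17B replicates 2 and 3. Low counts, 60 to 146 a library, limit the precision for Mmp2 and Timp1.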
